A study of Homo sapiens with 6 samples.

Results

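AHR, LGALS1 and ENTPD1 are genes tied to the way myeloid cells of a glioma restrain T cells. They were taken by symbol from a table of raw counts, and all 3 have a row among its 5117 genes. They were chosen by their counts and fold changes in the very comparison described here, C1s-CM against control CM, so their differences between the groups are a description, without a test. The libraries came from HMC3, an established human microglial cell line labelled WT, cultured in MEM with serum. One group, C1s-CM (3 libraries), received CM with C1s, a protease that acts early in the classical complement cascade. The other, control CM (3 libraries, titled FLAG), received CM without C1s. The dose, duration and source of the CM are not given in the labels, which also do not say whether each library had a culture of its own. The spread between libraries may therefore be technical, and the model is 1 cell line without other cells of a tumour.

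AHR encodes the aryl hydrocarbon receptor, a transcription factor that waits in the cytosol in a complex with HSP90 and PTGES3. On binding a ligand, such as the tryptophan metabolite kynurenine, it enters the nucleus, pairs with ARNT and binds DNA with the core letters GCGTG. ENTPD1 encodes CD39, a membrane enzyme that removes phosphates from extracellular ATP and ADP to give AMP, from which NT5E (CD73) makes the T-cell inhibitor adenosine. LGALS1 encodes galectin-1, a secreted lectin that binds galactose-bearing glycans on cell surfaces and can trigger death of activated T cells. In glioma-associated macrophages, kynurenine acting on AHR has been linked to CD39, which makes AHR and ENTPD1 parts of a shared pathway in the literature.

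On GRCh38 and GENCODE release 29, AHR (ENSG00000106546) spans 16916359 to 17346152 of chromosome 7, LGALS1 (ENSG00000100097) 37675608 to 37679806 of chromosome 22 and ENTPD1 (ENSG00000138185) 95711779 to 95869695 of chromosome 10. All 3 are protein-coding genes on the plus strand. No annotated gene overlaps LGALS1. The span of AHR overlaps 5 other annotated genes and that of ENTPD1 overlaps 3, among them the antisense gene ENTPD1-AS1 on the minus strand, and none of these 8 has a row. The use of strand in counting is not given in the sources used here, so reads from ENTPD1 and ENTPD1-AS1 cannot be told apart. The same holds for AHR and its antisense gene AC073332.1. The protein-coding genes AC019117.2, which overlaps AHR, and AL365273.2, which overlaps ENTPD1, lie on the plus strand. Strand could not separate reads shared with these.

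Promoter windows from RefSeq (GRCh38.p14, 250 bases before to 50 after a start site) matched 2 of the 3 genes, AHR and ENTPD1. They are shown because the AHR core letters can be read in them directly, and capitals mark each GCGTG on either strand. RefSeq gave 1 window for AHR, chr7:17298402-17298701 on the plus strand, and 5 for ENTPD1, also on the plus strand, of which 1, chr10:95693935-95694234, holds the core. That window lies wholly before the ENTPD1 span of GENCODE release 29 given above, and the others lie within it. The ENTPD1 window chr10:95755913-95756212 is shown as one without the core.
AHR: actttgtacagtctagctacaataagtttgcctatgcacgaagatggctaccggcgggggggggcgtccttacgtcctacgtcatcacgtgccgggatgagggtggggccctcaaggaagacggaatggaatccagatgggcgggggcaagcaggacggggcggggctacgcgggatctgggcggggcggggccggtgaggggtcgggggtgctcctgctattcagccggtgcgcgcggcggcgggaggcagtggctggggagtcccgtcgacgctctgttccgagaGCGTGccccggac
ENTPD1, first start: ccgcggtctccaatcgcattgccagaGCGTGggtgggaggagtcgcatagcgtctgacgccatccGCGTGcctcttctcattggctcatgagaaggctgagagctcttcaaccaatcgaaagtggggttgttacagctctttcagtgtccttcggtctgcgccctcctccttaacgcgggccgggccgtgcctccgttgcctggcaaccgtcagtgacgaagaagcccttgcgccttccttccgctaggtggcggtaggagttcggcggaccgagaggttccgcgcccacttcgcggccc
ENTPD1, later start: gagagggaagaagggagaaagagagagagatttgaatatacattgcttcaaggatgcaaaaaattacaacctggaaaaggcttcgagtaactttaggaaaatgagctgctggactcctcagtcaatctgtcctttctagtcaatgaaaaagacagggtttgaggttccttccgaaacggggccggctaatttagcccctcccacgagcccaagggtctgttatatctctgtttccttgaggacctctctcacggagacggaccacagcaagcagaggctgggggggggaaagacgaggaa
The AHR window holds the core 1 time and the first ENTPD1 window 2 times. Of 35116 RefSeq promoter windows of 300 bases, 36.5% hold it. The GC box GGGCGG, searched on both strands with overlapping matches counted, occurs 4 times in the AHR window and in none of the 5 ENTPD1 windows, against 45.0% of all windows with at least 1. Counts per gene do not show which start a transcript came from, and a match of letters does not show binding.

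The transcripts also differ in composition. The representative AHR transcript (6276 bases, 11 exons) has a GC content of 40.9%, made up of a 5′ UTR at 75.0%, a coding part at 42.0% and a 3′ UTR of 3086 bases at 32.9%. That of LGALS1 is short (560 bases, 4 exons) and rich in GC (58.9%), with 58.1% in the coding part. That of ENTPD1 (2035 bases, 10 exons) has 46.9%. The longest annotated ENTPD1 transcript has 5044 bases and a GC content of 42.6%, so the values of this gene depend on which of its transcripts is taken.

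By share of counts, which is not per length, LGALS1 was among the highest genes of the table and AHR and ENTPD1 were near its lower end. LGALS1 had 52291, 60424 and 57457 counts in C1s-CM replicates 1 to 3 and 42637, 43497 and 43870 in control CM. As CPM, the share of the table's counts after TMM scaling, this was 4095 ± 230.5 in C1s-CM and 3105 ± 116 in control CM (SD, n = 3 each). Every C1s-CM library lay above every control library, the closest pair differing 1.18-fold, and replicate 1 was the lowest of the C1s-CM libraries at 3829 CPM. Only 35 genes had a higher mean level. The fitted log2 fold change of LGALS1 was 0.40 ± 0.034 (SE), a level 1.32 times that of control, and 192 genes of the table were further up.

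AHR, the receptor gene, had 122, 111 and 115 counts in C1s-CM and 151, 195 and 200 in control CM. Its level was 8.39 ± 0.578 CPM in C1s-CM and 12.98 ± 1.33 CPM in control CM (SD, n = 3 each). The groups did not overlap, and control replicate 1, at 11.4 CPM, was the control library nearest to C1s-CM. The log2 fold change of AHR was -0.63 ± 0.12 (SE), a level 0.644 times that of control. Further down were 467 genes of the table, and 92.4% had a higher mean level.

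ENTPD1, the ectonucleotidase gene, had 41, 37 and 43 counts in C1s-CM and 81, 70 and 68 in control CM. Its level was 2.92 ± 0.292 CPM in C1s-CM and 5.25 ± 0.784 CPM in control CM (SD, n = 3 each). All C1s-CM libraries lay below all control libraries, with the closest pair 1.47-fold apart and control replicate 1 the highest at 6.14 CPM. ENTPD1 had the largest difference of the 3 genes and the fewest counts. Its log2 fold change was -0.84 ± 0.18 (SE), a level 0.558 times that of control, and 73 genes were further down. In bulk RNA, fewer cells that carry a transcript and less of it per cell cannot be told apart.

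**Figure D1:**
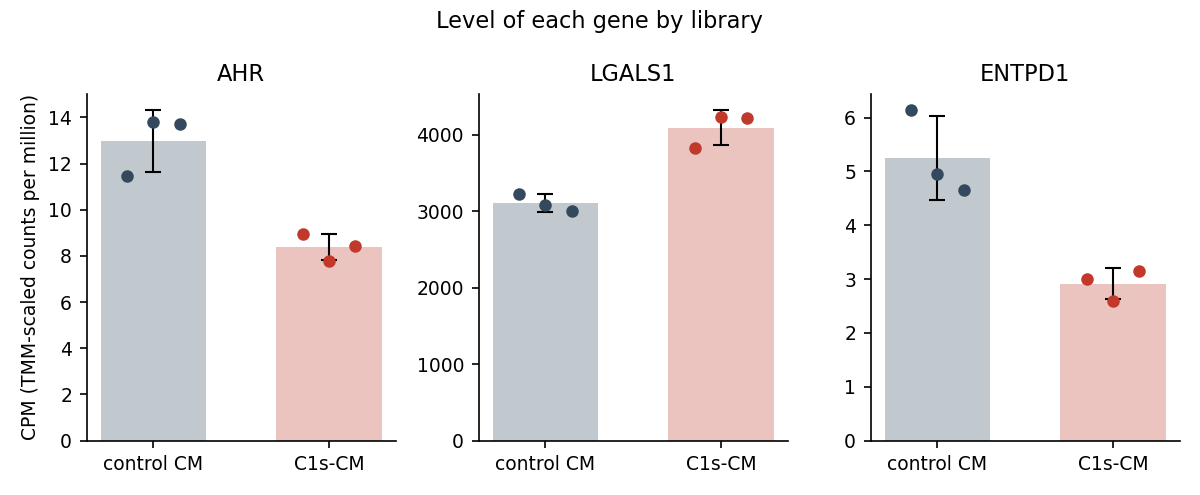
Level of AHR, LGALS1 and ENTPD1 in each library, in CPM on linear axes that start at 0 and differ between panels. Points are libraries, bars are means and error bars are SD (n = 3 per group); in each panel the groups do not overlap, with C1s-CM above control CM for LGALS1 (4095 against 3105 CPM) and below it for AHR (8.39 against 12.98 CPM) and ENTPD1 (2.92 against 5.25 CPM).

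Groups that do not overlap are the rule in this table, which holds genes that passed the authors' own test: 97.2% of genes tested had such groups, 48.9% with C1s-CM higher and 48.3% with C1s-CM lower. The separation of these 3 genes is therefore what nearly every row shows. The log2 fold changes in the authors' deposited table were 0.44 for LGALS1, -0.60 for AHR and -0.81 for ENTPD1.

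Per kilobase of the representative transcript, LGALS1 stood at 7313 ± 412 CPM in C1s-CM and 5545 ± 207 CPM in control CM (SD, n = 3 each). ENTPD1 followed at 1.43 ± 0.143 and 2.58 ± 0.385 CPM per kilobase and AHR at 1.34 ± 0.0922 and 2.07 ± 0.212. The AHR and ENTPD1 levels per kilobase overlapped between libraries in C1s-CM but not in control CM, and a longer ENTPD1 transcript would lower its value. LGALS1 was 5472 times the AHR level per kilobase in C1s-CM and 2681 times in control CM.

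The spread between libraries has a different base in each gene. For LGALS1 the coefficient of variation between libraries was 5.63% in C1s-CM and 3.73% in control CM, where counting alone would give 0.420% and 0.480%. For AHR it was 6.90% and 10.3%, against 9.28% and 7.41% from counting. For ENTPD1 it was 9.99% and 14.9%, against 15.7% and 11.7%. The precision of AHR and ENTPD1 is thus near what their 348 and 121 counts in all C1s-CM libraries together allow, and that of LGALS1 is set by differences between libraries.

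Low levels went with large differences in this table, of which every row had passed the authors' test. A gene with few counts needs a larger difference to pass such a test. The 5th percentile of the absolute log2 fold change was 0.42 in the lowest of 10 level classes and 0.063 in the highest. Level also went with GC content: the median GC content was 40.1% in the lowest of 10 level classes and 56.1% in the highest, and with offsets the median log2 fold change of the lowest class went from -0.59 to -0.10. The part of this selection, of level and of GC content in these differences was not tested. AHR and ENTPD1 both lay in the lowest of 10 level classes (512 genes, 1.73 to 12.9 CPM), where the median absolute log2 fold change was 0.63, against 0.21 in the highest class, which holds LGALS1. Of the 420 genes of the lowest class that were lower in C1s-CM, the median was -0.64, so AHR sat at the middle of them, while 60 genes of the class were further down than ENTPD1. In the highest class 8 of 512 genes were further up than LGALS1.

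The direction of all 3 genes was that of most transcripts with a like GC content. The table was divided into 10 classes of equal size by GC content. AHR fell in the third class (39.5 to 41.4% GC, 511 genes), in which 98.8% of genes were lower in C1s-CM with a median log2 fold change of -0.46, and 79 of the 511 were further down than AHR. LGALS1 fell in the eighth (58.5 to 61.1%), in which 100% were higher with a median of 0.23, and 31 of 511 were further up. ENTPD1 fell in the fifth (43.7 to 49.4%), in which 78.9% were lower with a median of -0.26. Only 3 of its 511 genes were further down, and ENTPD1 lay -0.58 from the median of the class on the log2 scale, against -0.17 for AHR and 0.17 for LGALS1. At the 42.6% GC of its longest transcript, ENTPD1 would fall in the fourth class, with a median of -0.38.

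**Figure D2:**
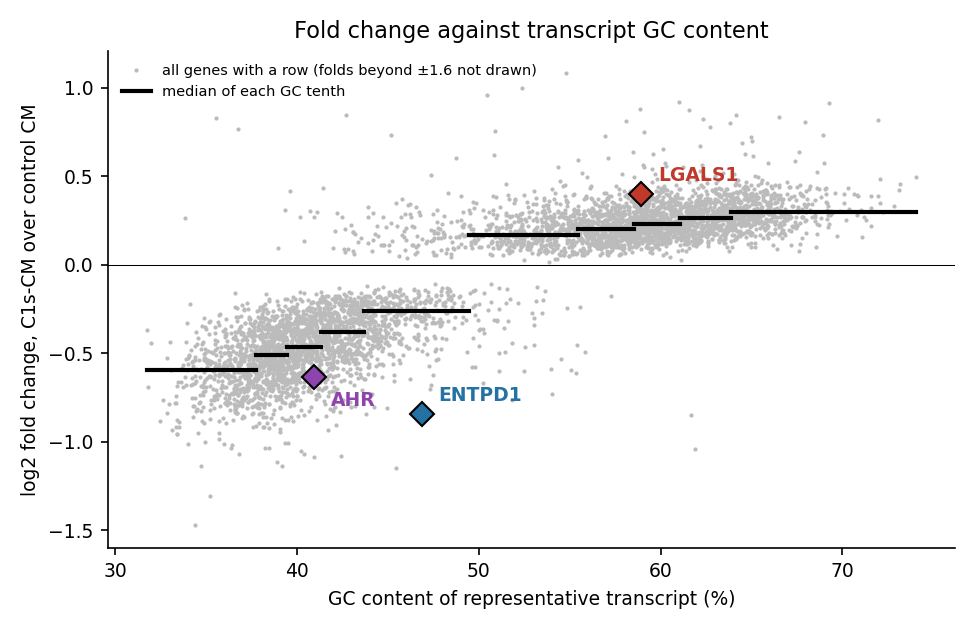
Log2 fold change of C1s-CM over control CM (vertical axis) against the GC content of the representative transcript (horizontal axis, percent) for the genes of the table, with 6 genes beyond ±1.6 not drawn. Grey points are genes, black lines are the medians of the 10 GC classes and diamonds are AHR, LGALS1 and ENTPD1; LGALS1 lies 0.17 above and AHR 0.17 below the median of its class, and ENTPD1 lies 0.58 below it.

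When offsets for GC content and transcript length were fitted per library, the differences of AHR and LGALS1 shrank and that of ENTPD1 depended on the transcript. The log2 fold change of AHR became -0.15 ± 0.11 (SE) and that of LGALS1 0.078 ± 0.024, which is 24.1% and 19.5% of the values without offsets. ENTPD1 stood at -0.76 ± 0.18, 90.2% of its value, and 10 of 5112 genes were then further down. All 10 lay in the lowest level class, that of ENTPD1 itself. With the longest transcript of each gene, ENTPD1 was at -0.48 ± 0.18 (57.3%), AHR at -0.088 ± 0.11 and LGALS1 at 0.064 ± 0.025. The offsets were fitted on genes that the authors had already called, and they would also take away a response that follows GC content.

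The 3 directions were the same under all alternatives run. These use the libraries by which the genes were chosen, so this too is a description. With offsets and the longest transcript, AHR was within 1 SE of 0 (-0.088 ± 0.11). Without offsets, leaving out any 1 library gave -0.71 to -0.58 for AHR, 0.37 to 0.45 for LGALS1 and -0.92 to -0.72 for ENTPD1. With total counts as the only scaling the values were -0.76, 0.27 and -0.97, while the median over all genes moved from 0.080 to -0.045. In all but the offset fits, the size of each difference stayed within 1.5 times the value given above.

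**Figure D3:**
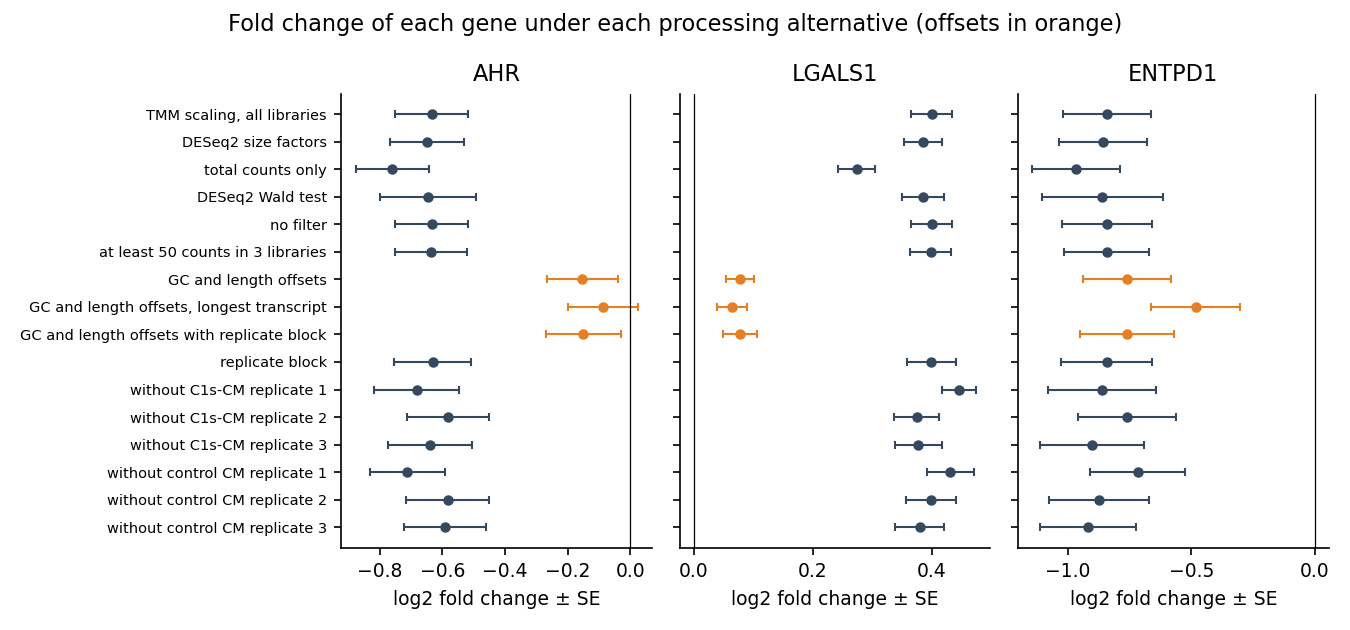
Log2 fold change (horizontal axis, C1s-CM over control CM) of AHR, LGALS1 and ENTPD1 under each processing alternative (rows), with error bars of 1 SE. Fits with GC and length offsets are orange; AHR and LGALS1 move toward 0 in these (to -0.15 and 0.078 with the representative transcript), whereas ENTPD1 stays at -0.76 with the representative and -0.48 with the longest transcript.

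The genes whose profile over the 6 libraries was nearest to each of the 3 were found among the genes whose mean level reached 1 CPM, by the Euclidean distance between log2 CPM values centred on their means. For AHR these were NEDD1 (distance 0.0521, Pearson's r 0.998), STXBP3 (0.0601, 0.998) and GULP1 (0.0894, 0.996). For LGALS1 they included ROMO1 (0.0546, 0.994) and RNF123 (0.0616, 0.999). For ENTPD1 the nearest were further off, RASSF8 (0.185, 0.985), KLHL15 (0.234, 0.987) and N4BP2 (0.261, 0.975). All of these genes share the same 6 libraries and a difference between the groups. The 3 genes nearest to AHR had transcripts of 33.9 to 35.7% GC and ROMO1 and RNF123 of 62.0% and 59.2%. Those nearest to ENTPD1 had 36.1 to 37.2%, below its own 46.9%, and with offsets they were at -0.18 to -0.086 while ENTPD1 was at -0.76.

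The other genes of these pathways, listed by their known roles, were tested with edgeR's quasi-likelihood test and Benjamini-Hochberg adjustment over 5116 genes. Of 186 listed genes 51 had a row, and 26 were higher and 24 lower in C1s-CM at adjusted p 0.05. Of all genes tested, 99.4% were called, 50.9% higher and 48.5% lower, so these counts are near the background. Of the 24 pathway genes at 50% GC or above, 22 were called higher and 1 lower, and of the 27 under that limit 4 higher and 23 lower. With offsets 9 were called higher and 10 lower (of all genes 25.6% were called, 14.4% higher and 11.2% lower), and with total counts as the only scaling 11 higher and 25 lower (75.3% of all genes called, 26.1% higher and 49.2% lower). DESeq2's Wald test called 24 higher and 24 lower (96.4% of all genes, 47.9% higher). Only 10 genes were called in 1 direction both without and with offsets: HSP90AB1, NQO1, ADK, CD163 and TGFB1 higher and HSP90AA1, NFE2L2, MAN2A1, SP1 and HIF1A lower. Of these, MAN2A1 and HIF1A missed the threshold with the longest transcript and SP1 turned. A further 8 pathway genes, LAMP2 and TGFB2 among them, were called in opposite directions without and with offsets. The like shares of all genes are not given here.

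AHR's partners were divided. Of 14 listed, 9 had a row, 4 rose and 5 fell, with a median log2 fold change of -0.25. HSP90AA1, the inducible cytosolic HSP90, fell by a log2 fold change of 0.50 ± 0.026 (SE; adjusted p = 1.07e-13, edgeR), from 743 ± 6.92 to 524 ± 5.75 CPM (SD, n = 3 each). CUL4B, a scaffold of a ubiquitin ligase that AHR can join, was at -0.45 and RB1, the retinoblastoma protein gene, at -0.63, both past the threshold. With offsets HSP90AA1 was at -0.15 and still past it, whereas CUL4B (-0.018) and RB1 (-0.062) missed it. HSP90AB1, the constitutive HSP90, named after its values were seen, was at 0.12 without and 0.25 with offsets, and at -0.0022 with total counts as the only scaling.

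Of 13 AHR target genes 4 had a row, 2 rose and 2 fell, with a median of -0.11. CYP1B1, a cytochrome P450 induced by AHR ligands, had 166, 142 and 152 counts in C1s-CM and 191, 233 and 242 in control CM. The groups did not overlap, and CYP1B1 fell by 0.52 ± 0.11 (SE, adjusted p = 8.87e-05, edgeR). NQO1, a quinone reductase shared by the AHR and NRF2 responses, rose by 0.21 ± 0.047 (adjusted p = 0.000237), and NFE2L2, which encodes NRF2, fell by 0.43 ± 0.055 (adjusted p = 1.73e-07). SLC7A5, a transporter of tryptophan and other large amino acids, was at 0.26. With offsets CYP1B1 (-0.18) and SLC7A5 (0.026) missed the threshold, and NQO1 (0.40) and NFE2L2 (-0.22) passed it. NQO1 missed it with total counts as the only scaling (0.082). CYP1A1, TIPARP and AHRR, the targets most used as a readout of AHR, were on the list but had no row, so their levels are not known here.

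Of 21 tryptophan and kynurenine genes 4 had a row and all 4 rose, where 50.9% of all genes did, with a median of 0.25. Besides SLC7A5 they were its partner subunit SLC3A2 (0.25 ± 0.028, SE), QPRT, which uses quinolinate downstream of kynurenine (0.27 ± 0.068), and the tryptophanyl-tRNA synthetase WARS1 (0.076 ± 0.033). None of the 4 passed the threshold with offsets, and QPRT (0.14) and WARS1 (-0.049) missed it with total counts as the only scaling. Their median GC content was 57.7%, in a GC class where 99.4% of genes were higher in C1s-CM. The enzymes that make kynurenine, IDO1, IDO2 and TDO2, were on the list but had no row.

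For galectin-1, the list of other galectins held 1 gene with a row of 11, LGALS3BP, which encodes a glycoprotein that galectins bind. It was at 0.046 ± 0.025 (SE, adjusted p = 0.0850, edgeR), with 957 ± 2.02 CPM in C1s-CM and 927 ± 10.4 CPM in control CM (SD, n = 3 each), and did not pass the threshold. With offsets LGALS3BP was at -0.19 and with total counts as the only scaling at -0.080, past the threshold in both. Of 13 counter-receptors, ITGB1, the integrin beta 1 chain (-0.45 ± 0.030), and LAMP2, a lysosomal membrane glycoprotein (-0.32 ± 0.040), had a row and fell. Their median GC content was 38.6%, in a GC class where 99.6% of genes were lower in C1s-CM. With offsets ITGB1 turned to 0.021, which missed the threshold, and LAMP2 to 0.21, which passed it.

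Of 19 genes that build the glycans galectins bind, 9 had a row, 4 rose and 5 fell, with a median of -0.39. MAN2A1, a Golgi mannosidase of N-glycan maturation, fell by 0.62 ± 0.065 (SE, adjusted p = 9.52e-09, edgeR), from 43.6 ± 0.413 to 28.4 ± 1.55 CPM (SD, n = 3 each). SLC35A3, the Golgi carrier of UDP-N-acetylglucosamine, was at -0.72 ± 0.12 and C1GALT1C1, the chaperone of core 1 O-glycan synthesis, at -0.50 ± 0.089, and the galactosyltransferase B4GALT2 was at 0.23 ± 0.034. With offsets MAN2A1 was at -0.50 and passed the threshold, and at -0.010 with the longest transcript and did not. SLC35A3 (-0.096), C1GALT1C1 (-0.19) and B4GALT2 (-0.054) missed it with offsets, and C1GALT1C1 passed it with the longest transcript (-0.30).

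Of 7 relatives of ENTPD1, 3 had a row, and 1 rose and 2 fell. ENTPD4, a nucleotidase of the Golgi and lysosomes, had 249, 268 and 271 counts in C1s-CM and 325, 368 and 381 in control CM, and fell by 0.43 ± 0.080 (SE, adjusted p = 2.91e-05, edgeR). ENTPD7, an intracellular member, fell by 0.26 ± 0.065 (adjusted p = 0.000682), and ENTPD6, a Golgi and secreted member, rose by 0.22 ± 0.044 (adjusted p = 6.35e-05), though scaling by total counts alone left it short of the threshold (0.094). With offsets none of the 3 passed the threshold, at -0.16 for ENTPD4, -0.046 for ENTPD7 and 0.0024 for ENTPD6. With the longest transcript ENTPD4 passed it at -0.21. Whether ENTPD1 differed from them was not tested, since its own difference led to its choice.

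Of 28 genes of adenosine formation and removal 9 had a row, 7 rose and 2 fell, with a median of 0.21. Of all genes 50.9% rose and 48.5% fell. The median GC content of the 9 was 57.9%, in a GC class where 99.4% of genes were higher in C1s-CM. With total counts as the only scaling 2 were called higher and 2 lower, and with offsets 2 higher and 0 lower. ADK, the kinase that returns adenosine to AMP inside the cell, had 1139, 1178 and 1265 counts in C1s-CM and 973, 975 and 932 in control CM. All C1s-CM libraries were higher, and ADK rose by 0.33 ± 0.055 (SE, adjusted p = 9.05e-06, edgeR), 0.46 with offsets and 0.20 with total counts as the only scaling. NT5C, a cytosolic nucleotidase, was at 0.32, the adenosine transporter SLC29A1 at 0.17 and the mitochondrial kinase AK3 at -0.41. These last 3 missed the threshold with offsets (-0.045, -0.029 and -0.033). SLC29A1 also missed it with total counts as the only scaling (0.041). NT5E, which completes the step from AMP to adenosine, was on the list but had no row. Of 16 purine receptors, P2RX6, an ATP-gated channel subunit, had a row, and it rose by 0.62 ± 0.17 from 3.40 ± 0.316 to 5.22 ± 0.340 CPM (SD, n = 3 each), but missed the threshold with offsets (0.40). Of 8 regulators linked to ENTPD1 transcription, beside AHR, 3 had a row and all fell, where 48.5% of all genes did. They were HIF1A, the hypoxia factor (-0.61 ± 0.045), CREB1, the cyclic AMP response factor (-0.55 ± 0.062), and SP1, which binds GC boxes (-0.20 ± 0.040). In the GC classes of HIF1A and CREB1, 99.6% and 99.2% of genes were lower in C1s-CM, and in that of SP1 10.8%. With offsets HIF1A (-0.13) and SP1 (-0.30) passed the threshold and CREB1 (0.078) did not, and with the longest transcript HIF1A missed it (-0.076) and SP1 turned to 0.13.

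**Figure D4:**
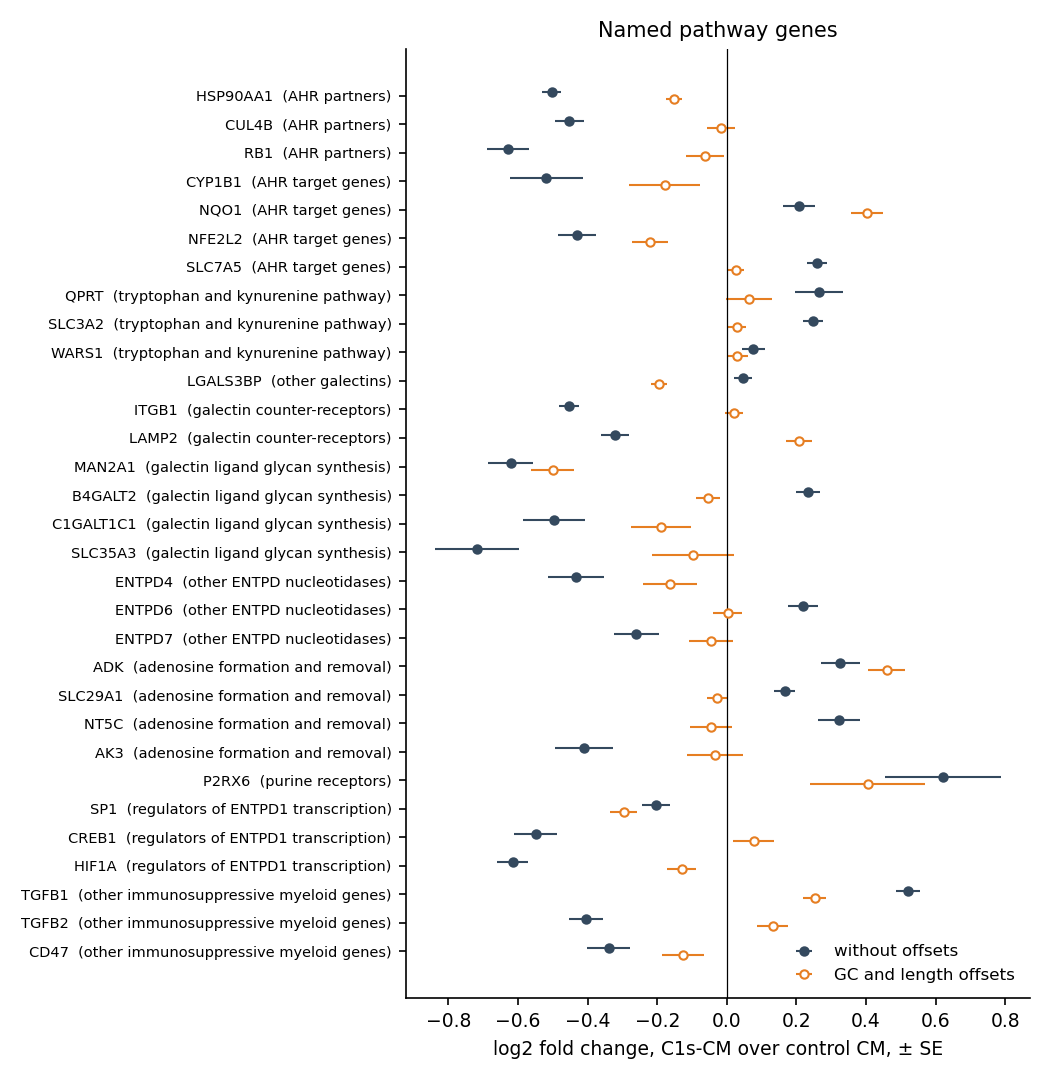
Log2 fold change (horizontal axis, C1s-CM over control CM, ± 1 SE) of the named pathway genes with a row, by list, without offsets (filled) and with GC and length offsets (open); CD163, at 0 counts in control CM, is left out. Most values move toward 0 with offsets, as RB1 does from -0.63 to -0.062, while ADK goes from 0.33 to 0.46 and NQO1 from 0.21 to 0.40.

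Among 44 other genes of immunosuppressive myeloid cells 7 had a row, 4 higher and 3 lower. CD163, a scavenger receptor of macrophages, had 322, 231 and 311 counts in C1s-CM and 0 in each control library. TGFB1 was at 0.52 and 0.25 with offsets, and TGFB2 at -0.41 and 0.13, past the threshold in each. CD47, the signal that blocks phagocytosis, was at -0.34 and missed the threshold with offsets (-0.13). CD47 turned to 0.20 with the longest transcript, and TGFB2 then missed the threshold at 0.097.

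The deposited counts summed to 12730766 to 14961744 per library over genes with a row, which is a part of each library's depth. Of 20 microglia and macrophage markers 2 have a row, 1 of them CD163, which is at 0 in all control libraries. Of 12 fibroblast and pericyte markers 4 have a row (COL1A1, THY1, PDGFRB and TAGLN), with a summed level of 6142 to 6204 CPM in C1s-CM and 5707 to 5847 CPM in control CM. Glioma and astrocyte, neuron and oligodendrocyte, endothelial and lymphocyte markers had 0 rows. All 13 mitochondrially encoded genes rose, where 50.9% of all genes did. With total counts as the only scaling 10 of them were called higher (26.1% of all genes), with offsets 13 (14.4%) and with the longest transcript 12. Their summed level was 16795 to 17304 CPM in C1s-CM and 14057 to 14265 CPM in control CM. The part of these differences in the values of AHR, LGALS1 and ENTPD1 was not tested.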

How the data were processed

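Poly(A) RNA of 6 HMC3 libraries was read from both ends, per the labels' protocols. The submitters' processing notes name FastQC 0.11.9, Trim Galore 0.6.7, HISAT2 2.2.1, DESeq2 1.40.2 and the build GRCh38; for the read counter, its annotation and its strand setting the sources used here give nothing. The authors deposited whole-number raw counts per gene. Per the file headers, the authors' own log2 fold change and p-value stand beside them. No gene of the deposited table has an adjusted p-value above 0.05, so every row is a gene the authors had called, and a test on these rows is no independent evidence. Here edgeR 4.0.16 (R 4.3.3) was run on the 5116 genes that filterByExpr kept of 5117, with TMM scaling, the two-sided quasi-likelihood test and Benjamini-Hochberg adjustment at 0.05. TMM assumes that most genes do not differ, an assumption such rows need not meet. Standard errors are the size of the log2 fold change over the square root of F. CPM refer to the table's total. GENCODE release 29 gave coordinates and a representative transcript per gene (principal isoform, then support level, basic tag and length), with no match for 4 genes. For the offsets, log2 CPM in each library was fitted by loess (span 0.3) to GC content and log2 length over 5112 genes. DESeq2 1.42.0, other scalings and filters, and leaving out each library were tried. The fits were tested on simulated data with few changed genes, and for the offsets with an added GC trend. Nearly every row here was called, so that test cannot show that the scaling or the offsets suit these rows. Named pathway genes are up to 4 per list that passed, smallest p first, and all with a row of the galectin and ENTPD families; others are marked where named, and a few genes that the rules would name are not reported here. Members and lists were chosen with earlier results of these data known.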

Additional observations from a re-analysis of the deposited data

How the results depend on the processing

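GC and length offsets changed most. Genes called went from 5086 to 1309 with the representative and 1362 with the longest transcript, and listed pathway genes from 50 to 19 and 16. AHR was at -0.15 and -0.088, LGALS1 at 0.078 and 0.064, and ENTPD1 with the longest transcript at -0.48. Offsets without each library in turn were an alternative chosen after seeing the data. Without C1s-CM replicates 1 to 3 and control replicates 1 to 3 they gave -0.19, -0.11, -0.16, -0.22, -0.11 and -0.12 for AHR, and 0.094, 0.069, 0.062, 0.085, 0.073 and 0.062 for LGALS1. ENTPD1 ranged from -0.84 to -0.64, the latter without control replicate 1. With total counts as the only scaling LGALS1 was at 0.27, and 34.7% of calls were higher against 51.2% with TMM.

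Replicate numbers are shared by the groups. The deviations of same-numbered libraries from their group means had r = -0.13, -0.087 and -0.0031, against -0.061 to 0.14 for differently numbered ones. With 3 libraries a group and a spread that is partly counting, these values cannot show whether same-numbered libraries share a culture or batch. The replicate block gave 5054 calls and 49 pathway genes. With offsets and the replicate block together there were 1158 calls and 17 pathway genes, with AHR at -0.15 and LGALS1 at 0.077.

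Of the 32 named pathway genes, 8 turned with offsets, 13 with the longest transcript and 2 with total counts. With offsets the values were -0.19 for LGALS3BP, 0.021 for ITGB1, 0.21 for LAMP2, -0.054 for B4GALT2, -0.029 for SLC29A1, -0.045 for NT5C, 0.078 for CREB1 and 0.13 for TGFB2. The replicate block with offsets left these 8 turned, with -0.055 for B4GALT2 and 0.077 for CREB1 and the others at the same 2 digits. With the longest transcript they were 0.078 for CUL4B, -0.056 for WARS1, -0.21 for LGALS3BP, 0.19 for LAMP2, -0.025 for B4GALT2, -0.023 for ENTPD6, -0.061 for SLC29A1, -0.020 for NT5C, 0.081 for AK3, 0.063 for CREB1, 0.13 for SP1, 0.097 for TGFB2 and 0.20 for CD47; ITGB1 was at -0.0042, its direction without offsets. With total counts they were -0.049 for WARS1 and -0.080 for LGALS3BP. The cause was not tested. ENTPD1, with 121 counts in C1s-CM, is limited by depth.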

Other observations

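A pair of immune checkpoint ligands outside the naming rule, chosen after their values were seen, moved in opposite directions. Every row had passed the authors' test, and 99.4% of genes tested were called here. The groups did not overlap in 97.2% of genes. The p-values of this pair are therefore no independent evidence. CD274, which encodes PD-L1, fell by a log2 fold change of 0.33 ± 0.061 (SE; adjusted p = 2.84e-05, edgeR's quasi-likelihood test), from 47.9 ± 3.02 to 38.1 ± 0.384 CPM (SD, n = 3 each), lower in 3 of 3 libraries. CD276, which encodes B7-H3, rose by 0.15 ± 0.039 (adjusted p = 0.00104), from 100.9 ± 2.44 to 111.8 ± 0.181 CPM. CD274 (40.9% GC) lay in a GC class where 98.8% of genes were lower in C1s-CM. CD276 (61.0% GC) lay in one where 100% were higher. With GC and length offsets CD274 was at 0.099 and CD276 at -0.088, and both missed the threshold. When libraries were scaled by total counts alone, CD276 dropped to 0.023 and was not called, while CD274 was at -0.46 and still called. S100A4, a calcium-binding protein gene of myeloid and mesenchymal cells, had 277, 284 and 272 counts in C1s-CM and 221, 220 and 221 in control CM, and was at 0.16 with offsets, which missed the threshold.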
